A study of Mus musculus with 24 samples.

Results

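The clustered histone genes encode the H1, H2A, H2B, H3 and H4 proteins that package newly copied DNA. They were taken here as the rows of biotype protein_coding, present in all 4 deposited tables, whose symbol starts with Hist1h, Hist2h, Hist3h or Hist4h. The rule gave 66 genes of the 26260 listed in the largest table and used no measured value. They comprise 6 H1, 18 H2A, 17 H2B, 12 H3 and 13 H4 genes, with 53 of Hist1 symbol on chromosome 13, 10 in the Hist2 cluster on chromosome 3, 2 in Hist3 on chromosome 11 and 1, Hist4h4, on chromosome 6. Of the 53, 52 lie in the Hist1 cluster (chr13:21715763-23764406), and Hist1h2al, an H2A gene that GENCODE M21 gives as a processed pseudogene, lies outside it at chr13:51202727-51203065. A further 2 rows with such symbols, Hist1h2aj and Hist3h2bb-ps, are listed as pseudogenes and were left out.

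The data are poly-A RNA-seq libraries of 24 mouse guts, each dissected whole at embryonic day 12.5, made to ask whether Ret, the GDNF-family receptor, and Sema3d, a secreted guidance cue, interact in the formation of the enteric nervous system. The groups were Ret null homozygotes, Sema3d null homozygotes, Ret-Sema3d double null homozygotes and wildtypes, with 3 male and 3 female guts each. All were on a mixed background of the C57BL/6, 129/Sv and C3H strains, and the labels name no Cre driver or transgene. The deposited tables hold the authors' model fits, so no value per gut and no depth per library is known. The spread between guts enters only through the authors' tests, which compared 12 guts with sex as a covariate, or all 24 guts for the interaction. Whole gut was used, so fewer cells of a type and less RNA per cell cannot be told apart.

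Replication-dependent histone genes are switched on in S phase, when the cell copies its DNA and needs new nucleosomes. Their mRNAs mostly end not in a poly-A tail but in a short stem-loop, cut with the help of the stem-loop binding protein and the U7 snRNP, and they decay when replication ends. Libraries made with oligo-dT beads, as here, therefore sample these genes only through transcripts that carry a tail or were otherwise carried along. The levels below are levels of captured RNA in this sense, and not amounts of histone mRNA in the gut.

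The annotated transcripts (GENCODE M21, GRCm38, the build of all coordinates given) were searched for the stem-loop, spelled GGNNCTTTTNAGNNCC, on the transcribed strand. It was found in 44 of the 66 members and in 28 of 21836 other genes with a protein_coding transcript (0.128%). The sequences below, from those transcripts, show its 6 spellings, with the 16-base motif in capitals. They are shown because this element decides how the mRNA of these genes ends.
Hist1h2ap: aaaaaaGGCTCTTTTCAGAGCCatc
Hist1h1e: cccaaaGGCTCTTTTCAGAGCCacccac
Hist1h3c: aaaaaaGGCTCTTTTAAGAGCCacctaa
Hist2h2ac: caaaaaGGCTCTTTTTAGAGCCaccaaa
Hist1h4d: accaaaGGCCCTTTTCAGGGCCactacc
Hist1h4i: cttaaaGGCCCTTTTTAGGGCCaccaca
Hist1h4b: acaaaaGGTCCTTTTCAGGACCactcac
The spelling of Hist1h2ap and Hist1h1e was the commonest, in 26 members of the H1, H2A, H2B and H3 types, and that of Hist1h3c stood in 6. Hist2h2ac alone had its form. The 11 H4 members with a match had 3 spellings of their own, as in Hist1h4d (7 genes), Hist1h4i (2) and Hist1h4b (2), that no member of another type shared. Annotated transcripts ran more than 100 bases past the stem-loop in 22 members and ended within 100 bases of it in 22. A further 10 members are annotated as a coding sequence only, and 12 had no match. The median wildtype level per kb of annotated transcript was 11.2 where the transcript ran on and 22.6 where it ended at the stem-loop. It was 22.2 for coding sequences only and 17.2 without a match. Before division by length the medians were 12.99, 12.22, 7.70 and 9.25 in the same order. The lower value per kb where the transcript ran on thus goes with longer annotated transcripts (median 1255 bases, against 483.5 at the stem-loop). The transcript lengths behind the authors' counts are not known, and a difference in capture was not tested.

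**Figure D1:**
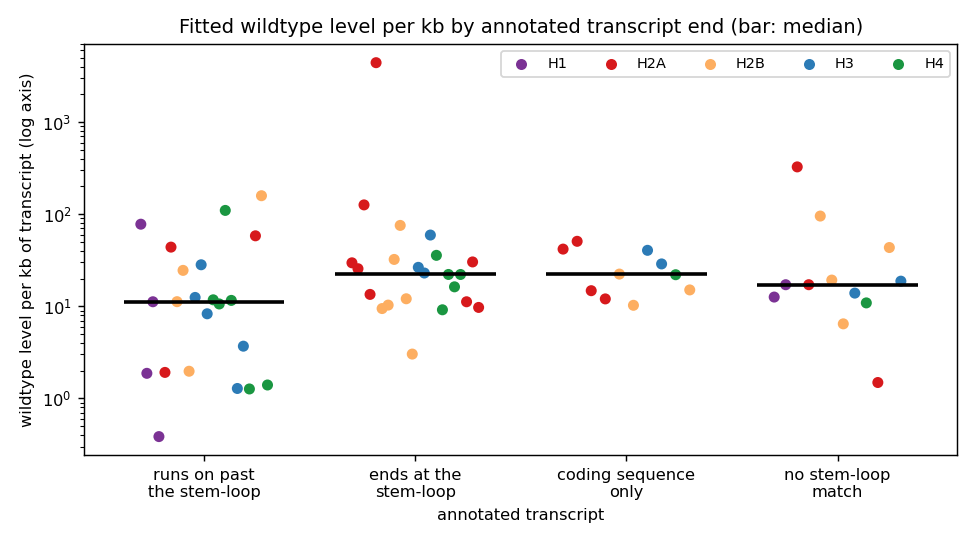
Fitted wildtype level per kb of annotated transcript (normalised counts per kb, log axis) for the 66 members, grouped by how the annotated transcript ends and coloured by histone type; each point is 1 gene and the bar is the median. The 4 groups overlap widely, and Hist1h2ap (H2A, 4413 per kb) stands above all others.

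Histone genes lie close together, and neighbouring H2A and H2B genes often start from one shared promoter. RefSeq promoters (GRCm38.p6), of which the 250 bases before the start were used, matched 59 members with 60 promoters. The motif CCAAT, a binding site of the factor NF-Y, stood on either strand in 81.7% of the member promoters and in 33.8% of 32851 RefSeq promoters of that length. By type it stood in 100% of H1, H2A and H2B promoters, in 80.0% of H3 and in 25% of H4 promoters. The motif TATAAA, also searched on both strands, stood in 45% of member promoters and in 12.4% of all. The octamer ATTTGCAT, bound by POU factors such as Oct1 and classically known from H2B promoters, stood in 6 of 16 H2A and 6 of 16 H2B promoters and in 1.60% of all; it had no match in H1, H3 or H4. The 3 motifs were searched separately, so matches may share bases, and a match is a description and not a bound site. The promoters of both H2A genes with the largest changes and an entry, and of the linker histone gene Hist1h1e, are printed with these motifs, on either strand, in capitals.
Hist1h2ah (chr13:22035644-22035893, minus strand): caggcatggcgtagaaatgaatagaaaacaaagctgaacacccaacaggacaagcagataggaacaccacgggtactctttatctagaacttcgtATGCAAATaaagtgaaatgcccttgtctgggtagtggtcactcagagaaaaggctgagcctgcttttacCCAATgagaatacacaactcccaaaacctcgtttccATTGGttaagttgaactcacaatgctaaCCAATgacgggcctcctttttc
Hist1h2ai (chr13:21716162-21716411, plus strand): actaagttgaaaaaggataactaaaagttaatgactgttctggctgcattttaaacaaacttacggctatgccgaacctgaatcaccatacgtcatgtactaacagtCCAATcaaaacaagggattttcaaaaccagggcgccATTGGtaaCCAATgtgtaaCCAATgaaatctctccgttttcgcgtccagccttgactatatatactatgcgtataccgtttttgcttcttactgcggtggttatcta
Hist1h1e (chr13:23622559-23622808, minus strand): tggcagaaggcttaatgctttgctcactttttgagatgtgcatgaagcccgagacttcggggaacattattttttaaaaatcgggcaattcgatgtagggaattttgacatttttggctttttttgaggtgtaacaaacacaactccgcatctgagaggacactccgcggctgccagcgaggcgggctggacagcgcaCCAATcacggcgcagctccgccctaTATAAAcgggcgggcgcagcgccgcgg
Hist1h2ah and Hist1h2ai hold 3 and 4 copies of CCAAT, and Hist1h2ah also holds the octamer. Hist1h1e holds 1 CCAAT and a TATAAA that begins 27 bases before the start. Overlapping promoters on opposite strands were found for 8 pairs of members, each an H2A with an H2B gene. Hist1h2ah shares 177 bases of promoter with Hist1h2bk, and Hist1h2ai shares 228 bases with Hist1h2bl.

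Most members were captured at low levels. The fitted level is the normalised count implied by the authors' deposited 24-gut table, averaged over the sexes. The median wildtype level was 10.4 over the members and 29.7 over all rows. Only 9 members reached 50 in wildtype guts, 25 lay between 10 and 50 and 32 lay under 10, among them the testis linker histone gene Hist1h1t and Hist2h2ab under 1. One H2A gene, Hist1h2ap (ENSMUSG00000094777.2, chr13:21833026-21833507, minus strand, a single exon), made up 59.0% of the summed wildtype level of all members. Its fitted level was 2578 in Ret null, 2772 in Sema3d null, 2377 in double null and 2127 in wildtype guts. The lowest of the 4 groups was thus wildtype.

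In fitted counts, the other high members differed less between genotypes than Hist1h2ap, except for the H2A gene Hist1h2ah. On the log2 scale their changes were not smaller throughout. In the 12-gut fits Hist3h2ba changed by 0.10 in Ret null, 0.35 in Sema3d null and 0.34 in double null guts. The values for Hist1h2ap were 0.28, 0.39 and 0.16 in the same order. Hist1h2ah (ENSMUSG00000069302.5, chr13:22035164-22035568, minus strand) had a fitted level of 1017 in Ret null, 596 in Sema3d null, 648 in double null and 132 in wildtype guts. In the 12-gut fits the level of Hist1h2ah was 1613 in Ret null, 1034 in Sema3d null and 1118 in double null guts, over 1.5 times those of the 24-gut fit, against 105 to 108 in wildtype guts. Its log2 coefficients in the authors' deposited tables were 3.93, 3.26 and 3.41 in the 12-gut fits, of which that for double null alone converged, and 2.94, 2.17 and 2.29 in the 24-gut fit. The size of the change of Hist1h2ah thus depends on the fit. So does its log2 coefficient of male over female, at 2.01 in the fit of Ret null, 2.17 in that of Sema3d null and 2.35 in that of double null guts. In the 24-gut fit that coefficient was 0.57. Hist3h2a, an H2A gene outside the large cluster, had 126 in Ret null, 146 in Sema3d null and 152 in double null guts, against 125 in wildtype guts. Both H2A genes thus had wildtype at the bottom, but by very different margins. Among the H2B genes, Hist2h2be had a fitted level of 139 in Ret null, 132 in Sema3d null and 120 in double null guts, against 114 in wildtype guts. Hist1h2bc had 107, 108 and 115 in the same null groups, against 110 in wildtype guts. Hist3h2ba had 105, 124 and 123 in these null groups, against 97.4 in wildtype guts. These 3 H2B genes thus lay between 97.4 and 139 in all 4 genotypes.

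Among H3 genes the highest was Hist1h3c, with a fitted level of 35.1 in Ret null, 34.8 in Sema3d null and 29.2 in double null guts, against 37.4 in wildtype guts. Hist1h3e followed with 23.3, 17.4 and 20.9 in those null groups, against 23.6 in wildtype guts, and Hist1h3h had 24.4, 22.9 and 17, against 16.7 in wildtype guts. No H3 gene reached 50 in wildtype guts. Of the H4 genes, Hist1h4i had a fitted level of 66.0 in Ret null, 81.9 in Sema3d null and 64.1 in double null guts, against 79.9 in wildtype guts. Hist1h4b had 15.8, 14.3 and 10.2 in those null groups, against 14.2 in wildtype guts, and Hist1h4d had 16, 12.4 and 12.7, against 12.1 in wildtype guts. No H4 gene but Hist1h4i reached 50. The linker histone gene Hist1h1c had a fitted level of 102 in Ret null, 118 in Sema3d null and 113 in double null guts, against 121 in wildtype guts.

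**Figure D2:**
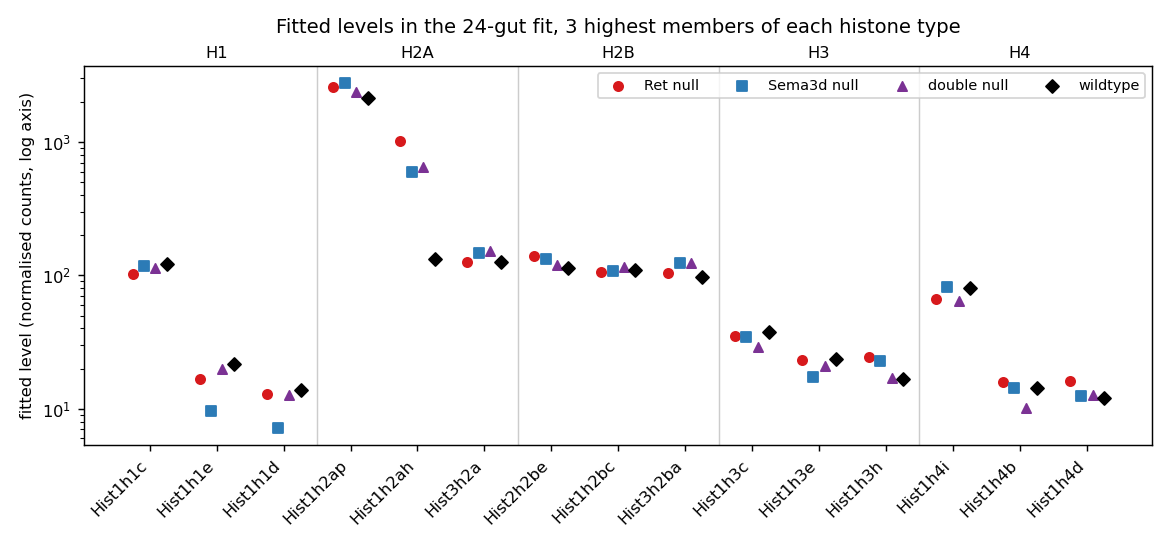
Fitted levels (normalised counts, log axis) in the 24-gut fit for the 3 highest members of each histone type, with Ret null, Sema3d null, double null and wildtype guts from left to right at each gene; these are model values without error bars. Hist1h2ah stands out, at 1017, 596 and 648 in the null groups against 132 in wildtype guts, while most other genes keep the 4 symbols close together.

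Many members share long stretches of sequence with other genes. With 100-base windows of the annotated transcripts, 60 of 66 members shared at least 1 window with a transcript of another gene, and the median member shared 35.9% of its windows. The share was 92.2% for Hist1h2ap, 87.9% for Hist1h2ah and 88.4% for Hist1h2ai. Over the 66 pairs of the 12 Hist1 H2A members with a coding sequence, identity ranged from 96.4 to 100%, with a median of 98.5%. The coding sequences of Hist1h2ap and Hist1h2ah differ at 3 of 384 bases, those of Hist1h2ap and Hist1h2ai at 5 of 390, and those of Hist1h2ah and Hist1h2ai at 2 of 384. Hist1h2ap and Hist1h2ao have identical coding sequences over 390 bases, yet their fitted wildtype levels were 2127 and 6.46. The submitters' processing notes name RSEM, a counter that allots reads matching several copies by a model, without its settings. The level of any single H2A gene is therefore uncertain. Some H2A windows were also shared with genes outside the members. The sum over H2A adds levels of the 24-gut fit, which for Hist1h2ah differ from those of the 12-gut fits, so it is uncertain too. That sum of fitted levels was 4018 in Ret null, 3806 in Sema3d null and 3479 in double null guts, against 2597 in wildtype guts. Without Hist1h2ap, Hist1h2ah and Hist1h2al, 3 genes left out after their values were seen, the other 63 members of all types summed to 1411 in Ret null, 1387 in Sema3d null and 1429 in double null guts, against 1340 in wildtype guts. This sum still holds Hist1h2ai, at 76.8, 80.09 and 89.34 in those null groups, against 19.95 in wildtype guts. It also holds Hist1h2ad, at 36.53, 51.96 and 35.52, against 14.64 in wildtype guts. By type, the H2B sum was above wildtype in every null group, and the H1, H3 and H4 sums were below it. Among genes with little shared sequence, Hist1h1c shared 5.07% of its windows and Hist2h2be shared none.

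In Ret null guts 3 H2A genes were higher than in wildtype, and no other clustered histone gene passed the test. The authors' deposited table calls 3 of the 66 members higher and 0 lower (adjusted p under 0.05), where it calls 2.66% of all 24602 rows, 0.386% higher and 2.27% lower. At an unadjusted p under 0.05 the same table has 5 members higher and 2 lower, beside 8.43% of all rows, 2.96% higher and 5.47% lower. Hist1h2ap rose by a log2 change of 0.28 ± 0.05 (derived standard error, 12 guts), with an adjusted p of 3.77e-07 in the authors' deposited table. Hist1h2ai (ENSMUSG00000071516.2, chr13:21716422-21716814, plus strand) rose to a fitted level of 74.9 in Ret null guts, against 19.4 in wildtype guts, in the 12-gut fit. Its log2 change in the authors' deposited table was 1.95 ± 0.32, with an adjusted p of 1.94e-07. Hist1h2ah was called with an adjusted p of 0.000567 and a coefficient of 3.93 in the authors' deposited table, but its fit did not converge, so the coefficient is not a fold change. All 3 belong to the H2A group whose copies share most of their sequence.

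The other H2A members did not pass the test. Of the 16 H2A members with a usable fit (converged, with a coefficient of at most 15 on the log2 scale), Hist1h2ap and Hist1h2ai among them, 11 lay above 0 in Ret null guts, with a median log2 change of 0.23. Hist1h2ad had a log2 change of 1.40 ± 0.53 in Ret null guts (adjusted p 0.203 in the authors' deposited table). Hist1h2al, for which GENCODE M21 gives a pseudogene biotype, had no usable fit in Ret null guts. Going the other way, Hist1h2ag had -0.38 ± 0.25 (adjusted p 0.828 in the authors' deposited table). The H2B partners that share promoters with Hist1h2ah and Hist1h2ai were not called, and Hist1h2ap had no matched promoter. In the authors' deposited table Hist1h2bk, head to head with Hist1h2ah, had a log2 change of -0.02, and Hist1h2bl, head to head with Hist1h2ai, one of 0.13. The difference between the partners was not tested.

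**Figure D3:**
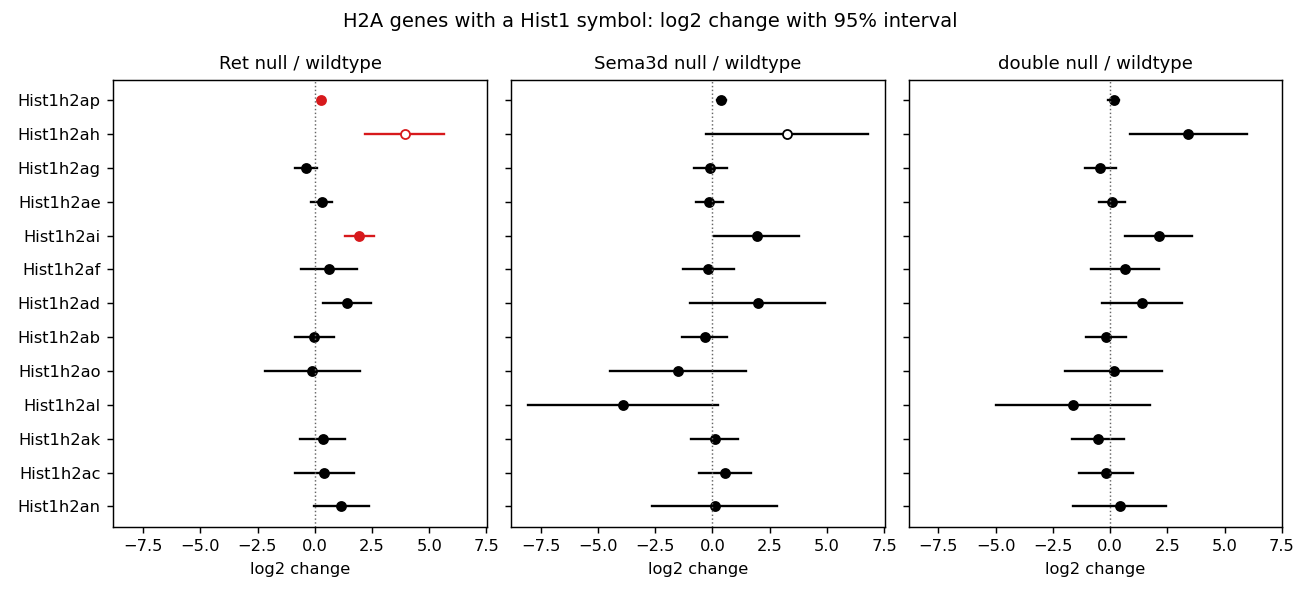
Log2 change against wildtype of the 13 H2A genes with a Hist1 symbol (12 in the cluster, and Hist1h2al outside it), with a panel each for Ret null, for Sema3d null and for double null guts, on one shared scale; bars are 95% intervals from the derived standard error, red marks an adjusted p under 0.05, and open circles are fits that did not converge. Hist1h2ah, Hist1h2ai and Hist1h2ad lie to the right of 0 in all 3 panels, Hist1h2al has a wide interval and no point in Ret null, and the interval of most other genes spans 0.

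The remaining types were centred near 0 in Ret null guts. The median log2 change over the 64 members with a usable fit was -0.02, beside 0.00 over all rows, with 33 members below 0. Type medians were -0.12 for H1, 0.07 for H2B, -0.09 for H3 and -0.04 for H4. Hist2h2be had the largest increase after Hist1h2ai among members with usable fits at a level of 50 or more in either genotype, which Hist1h2ai reached in Ret null guts alone, at 0.29 ± 0.12 with an adjusted p of 0.288 in the authors' deposited table. The largest decreases at that level, Hist1h2ag at -0.38 (given above), Hist1h4i at -0.28 ± 0.25 (adjusted p 0.944) and Hist1h1c at -0.25 ± 0.13 (adjusted p 0.555), also did not pass in the authors' deposited table. Hist1h2bc had -0.05 ± 0.13 in the authors' deposited table, a 95% interval of -0.29 to 0.20.

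Sema3d null guts gave no called member, and the members had a lower median log2 change than all rows. The authors' deposited table of DESeq results calls 0 of 66 members, where it calls 0.0404% of 24747 rows, 0.0202% higher and 0.0202% lower. At an unadjusted p under 0.05 it has 3 members higher and 4 lower, beside 4.53% of all rows, 2.19% higher and 2.35% lower. Of 65 usable fits 47 lay below 0, with a median log2 change of -0.26, beside 0.01 over all rows. The median differed with the level of the members. The 9 members with a usable fit and a mean level of at least 50 over the genotypes had a median of 0.21, with 3 below 0. Hist1h2ai is among them only through the null groups, and the 8 at 50 or more in wildtype guts had a median of 0.13. Between 10 and 50 the median was -0.13 with 17 of 23 below 0, and under 10 it was -0.60 with 27 of 33 below 0. All rows in those ranges had medians of 0.00, 0.05 and 0.03. The median derived standard error of the members under 10 was 0.71.

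Linker histone genes gave the lowest type median in Sema3d null guts. All 6 H1 members lay below 0, with a median log2 change of -0.83. They include Hist1h1t, which was close to undetected, at a fitted level of 0.28 in Sema3d null and 0.35 in wildtype guts. Its log2 change was -0.60, with an unadjusted p of 0.803 in the authors' deposited table. Hist1h1e had a fitted level of 9.65 in Sema3d null, against 16.6 in Ret null, 19.9 in double null and 21.6 in wildtype guts. Its log2 change against wildtype was -1.11 ± 0.45, with an unadjusted p of 0.0139 and an adjusted p of 0.914 in the authors' deposited table. Hist1h1a had -1.34 ± 0.56 (adjusted p 0.962) and Hist1h1d -0.94 ± 0.42 (adjusted p 0.999) in the authors' deposited table. The fourth member lower at an unadjusted p under 0.05 was the H2B gene Hist2h2bb, which had the smallest p of the 4 (0.0068) and a log2 change of -2.15 ± 0.80 (adjusted p 0.829) in the authors' deposited table, with a fitted level of 1.19 in Sema3d null and 5.74 in wildtype guts. Among the other H1 genes, Hist1h1b had -0.71 ± 0.45 (adjusted p 1 in the authors' deposited table). The 4 linker histone genes Hist1h1a, Hist1h1b, Hist1h1d and Hist1h1e had fitted wildtype levels of 9.34 to 21.6. Hist1h1c, the H1 gene with the highest normalised count, had -0.05 ± 0.14 in Sema3d null guts (95% interval -0.33 to 0.22, adjusted p 1 in the authors' deposited table). The annotated exons of Hist1h2be overlap those of Hist1h1e on the same strand, and 24.7% of the 100-base windows of Hist1h1e were shared, while Hist1h1a and Hist1h1b shared none.

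**Figure D4:**
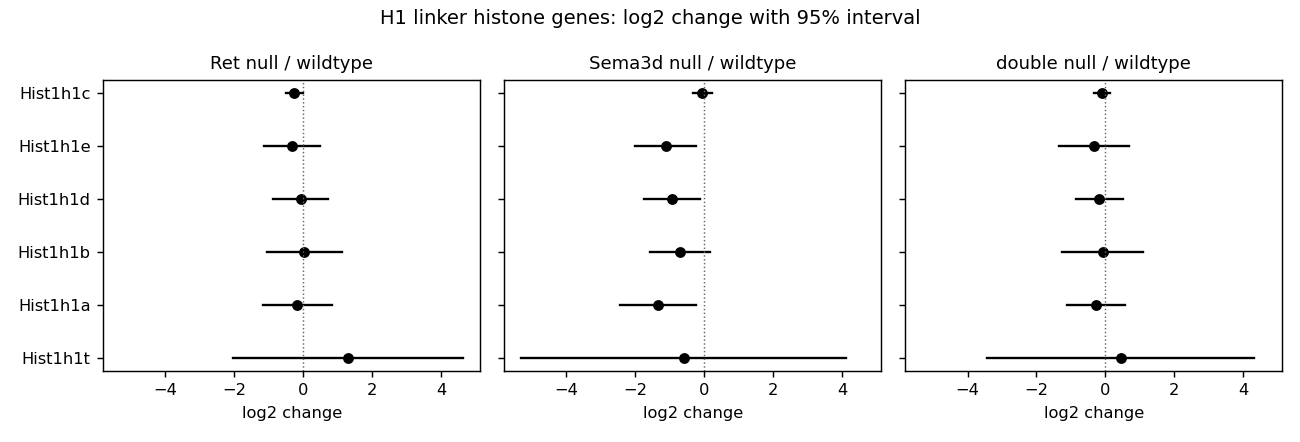
Log2 change against wildtype of the 6 H1 linker histone genes, ordered by level from the top, with a panel for each null genotype on one shared scale; bars are 95% intervals from the derived standard error. Hist1h1e, Hist1h1d and Hist1h1a have intervals below 0 in Sema3d null guts (-1.11, -0.94 and -1.34), and none has an adjusted p under 0.05.

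None of the H2A genes called in Ret null guts was called by DESeq in Sema3d null guts. Hist1h2ap had a log2 change of 0.39 ± 0.11 in Sema3d null guts, with an adjusted p of 0.168 in the authors' deposited table. Hist1h2ai had 1.94 ± 0.95 (adjusted p 1) and Hist1h2ad 1.97 ± 1.5 (adjusted p 1) in the authors' deposited table. The fit of Hist1h2ah did not converge. Hist3h2ba had 0.35 ± 0.15 in Sema3d null guts (adjusted p 0.962 in the authors' deposited table). Hist1h2ag at -0.10 ± 0.37 and Hist1h2bc at -0.03 ± 0.23 completed the largest decreases among the higher members in the authors' deposited table, together with Hist1h1c. Every comparison with wildtype uses the same 6 wildtype guts, so likeness between them is not independent.

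Double null guts also gave no called member. The authors' deposited table of DESeq results calls 0 of 66 members, where it calls 2.10% of all rows tested, 0.231% higher and 1.87% lower. At an unadjusted p under 0.05 it has 4 members higher and 0 lower, beside 6.71% of all rows, 2.72% higher and 3.99% lower. The median log2 change of the members was -0.13, with 40 of 66 below 0, beside 0.01 over all rows. Over the 10 members at a mean level of at least 50 it was 0.12, with 3 below 0, and over the 9 at 50 or more in wildtype guts, without Hist1h2ai, it was 0.07. Hist1h2ah had a fitted log2 change of 3.41 ± 1.31 here with a converged fit, and an adjusted p of 0.277 in the authors' deposited table. Hist1h2ai had 2.11 ± 0.76 (adjusted p 0.185), Hist3h2ba 0.34 ± 0.13 (adjusted p 0.243) and Hist3h2a 0.28 ± 0.11 (adjusted p 0.374) in the authors' deposited table. Those 4 are the members at an unadjusted p under 0.05, and 3 of them are H2A genes. Hist1h2ap had 0.16 ± 0.12 (adjusted p 1 in the authors' deposited table). The largest decreases among the higher members were Hist1h2ag at -0.42 ± 0.34, Hist1h4i at -0.32 ± 0.36 and Hist1h1c at -0.10 ± 0.12, each with an adjusted p of 1 in the authors' deposited table. The H1 genes Hist1h1a, Hist1h1b, Hist1h1d and Hist1h1e had log2 changes in double null guts from -0.33 for Hist1h1e to -0.08 for Hist1h1b in the authors' deposited table.

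**Figure D5:**
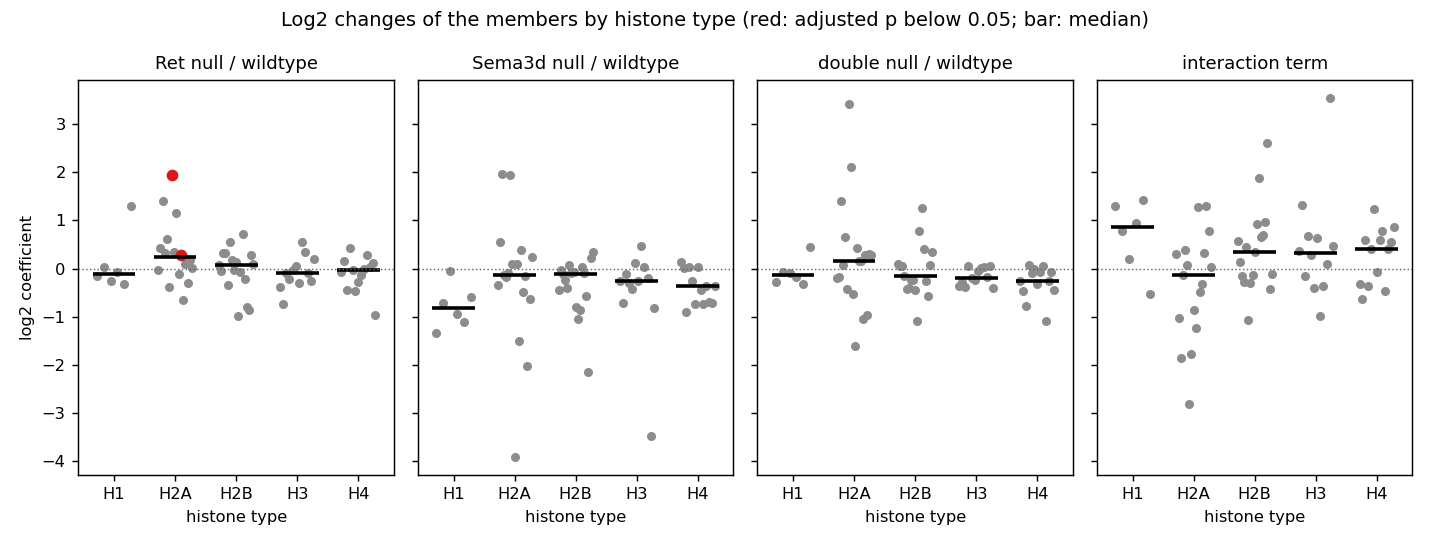
Log2 coefficients of the members with usable fits, by histone type, with a panel for each null genotype against wildtype and 1 for the interaction term; each point is 1 gene, the bar is the type median and red marks an adjusted p under 0.05 (fits that are not usable are not drawn, among them Hist1h2ah in Ret null). H1 has the lowest type median in Sema3d null (-0.83) and the highest in the interaction (0.86), and the called points are H2A genes in Ret null. Both H1 medians use the same Sema3d null guts, so they are not independent.

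The interaction term asks whether the double null departs from the sum of both single null changes on the log2 scale. The Sema3d null change enters it with a minus sign, so low values in Sema3d null guts alone raise the term. A positive term of a gene low in those guts is therefore not a separate result. The authors' deposited table calls 0 of 66 members, where it calls 0.164% of all rows tested, 0.129% positive and 0.0343% negative. At an unadjusted p under 0.05 it has 6 members positive and 3 negative, beside 6.79% of all rows, 4.07% positive and 2.72% negative. The median coefficient of the 65 usable fits was 0.31, beside -0.00 over all rows, and 26 lay below 0. H1 genes had a median of 0.86 and H2A genes one of -0.13. The positive terms of the H1 genes were led by Hist1h1e, whose term in the authors' deposited table was 1.42 ± 0.65 with an adjusted p of 0.645. The 6 positive members at an unadjusted p under 0.05 were Hist1h1e, the H2B genes Hist2h2bb (2.61 ± 1.13) and Hist1h2bn (1.88 ± 0.84), Hist1h3b (1.31 ± 0.61), Hist1h4h (1.25 ± 0.56) and Hist1h2al, whose fit is not usable, in the authors' deposited table. The 3 negative ones were Hist1h2ap, Hist1h2ah and Hist1h3h (-0.98 ± 0.50 in the authors' deposited table). The H2A genes at a level of 50 or more in any genotype included Hist1h2ad and Hist1h2ai, which reached it only in null guts, so their negative terms are given as values. Hist1h2ah had -2.82 ± 1.2 (adjusted p 0.586), Hist1h2ad -1.87 ± 1.48 (adjusted p 0.872) and Hist1h2ai -1.79 ± 0.94 (adjusted p 0.756) in the authors' deposited table. Hist1h2ap had -0.50 ± 0.16, with an unadjusted p of 0.00146 and an adjusted p of 0.217 in the authors' deposited table. The level of each of these 4 H2A genes in double null guts lay below the product of both single null changes. The largest positive terms at that level were Hist1h1c at 0.19 ± 0.18, Hist1h2bc at 0.13 ± 0.27 and Hist1h2ag at 0.07 ± 0.55 in the authors' deposited table. By level, the median term was -0.09 for the 10 members at a mean of 50 or more (-0.08 for the 9 at 50 or more in wildtype guts), 0.29 between 10 and 50 and 0.58 under 10.

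No test of double null against either single null could be taken from the tables, so those ratios are described only. In the 24-gut fit the median log2 ratio of double null over Ret null was -0.06 over 65 members and 0.00 over all rows. Double null over Sema3d null had a median of 0.16 over the members and -0.00 over all rows, with H1 at 0.82 and every other type between 0.09 and 0.13. This ratio uses the same Sema3d null guts as the comparison with wildtype, so the H1 value is not a separate result.

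Sex enters the fits as a covariate without a p-value. Members were mostly higher in males in the fits of Ret null guts (41 of 64) and Sema3d null guts (49 of 65), each together with the wildtype guts. In the fit of double null and wildtype guts 20 of 66 were higher in males, and in the 24-gut fit 35 of 65. The direction therefore depended on which guts were fitted. All 4 fits hold the same wildtype guts, and these counts were not set beside those over all rows. Hist1h2ap was higher in females in all 4 fits, with a fitted wildtype level of 1900.5 in males and 2354 in females in the 24-gut fit. So was Hist1h2ai, with log2 coefficients of male over female of -0.76 (Ret null), -1.10 (Sema3d null), -0.19 (double null) and -0.80 (24 guts). Hist1h2ah was higher in males in all 4 fits, by the coefficients given above.

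Genes that act with the clustered histones were read beside them as lists. The authors' deposited tables call 0 genes of any list in any of the 4 comparisons. The genes listed as replication-independent histones, whose mRNAs mostly carry a poly-A tail, had 13 measured members. Their median log2 change was 0.04 in Ret null, 0.04 in Sema3d null and -0.05 in double null guts. In Ret null guts H2afx, the H2A form phosphorylated at DNA breaks, had 0.14 ± 0.05 (adjusted p 0.11) and H2afv 0.11 ± 0.05 (adjusted p 0.494) in the authors' deposited table. In the Sema3d null comparison the authors' deposited table gives H1fx, a linker histone variant, at 0.27 ± 0.12 (adjusted p 1) and H2afx at 0.12 ± 0.09 (adjusted p 1). H2afz, the H2A.Z gene, had a fitted wildtype level of 5390 in the 24-gut fit (not scaled by length).

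Regulators of the clustered genes were described in the same way. Of 10 genes of histone gene transcription, 9 lay below 0 in Sema3d null guts, with a median log2 change of -0.07. Of 12149 usable rows at a mean level of at least 50, 5989 lay below 0 there, with a median of 0.00. Pou2f1, which encodes Oct1, had -0.25 ± 0.10 (adjusted p 0.962) and Npat, the coactivator of histone genes in S phase, -0.20 ± 0.11 (adjusted p 1) in the authors' deposited table. The 18 genes of histone mRNA 3 prime processing had medians of 0.03 in Ret null, 0.01 in Sema3d null and -0.05 in double null guts. Of these 7 lay below 0 in Sema3d null guts, and Casp8ap2, which encodes the processing factor FLASH, had -0.24 ± 0.09 (adjusted p 0.832) in the authors' deposited table. In the interaction Casp8ap2 had 0.26 ± 0.11, Npat 0.26 ± 0.11 and Pou2f1 0.28 ± 0.12, with adjusted p of 0.586, 0.626 and 0.642 in the authors' deposited table. These terms hold the same Sema3d null guts and are not independent of the negative changes given above. In Ret null guts Coil had 0.14 ± 0.08 and Lsm11, part of the U7 snRNP, 0.11 ± 0.07, with adjusted p of 0.709 and 0.810 in the authors' deposited table. Histone chaperones, 19 genes, had medians of 0.03 in Ret null, -0.02 in Sema3d null and -0.02 in double null guts, with Nasp at 0.11 ± 0.05 in Ret null guts (adjusted p 0.363 in the authors' deposited table) and Atrx at -0.15 ± 0.09 in Sema3d null guts (adjusted p 1 in the authors' deposited table).

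Genes of DNA replication act in the same phase of the cell cycle as the clustered histone genes. Of 30 such genes 25 lay above 0 in Ret null guts, with a median log2 change of 0.08, and 5 had an unadjusted p under 0.05, all higher. Over all rows 8.43% had such a p, 2.96% higher, and of the 12222 usable rows at a level of 50 or more, as all 30 are, 6589 lay above 0, with a median of 0.01. Mcm6, a subunit of the replicative helicase, had 0.14 ± 0.05 (adjusted p 0.0633) and Tyms, which makes thymidylate, 0.14 ± 0.06 (adjusted p 0.231) in the authors' deposited table. The median was -0.02 in Sema3d null and -0.01 in double null guts, with 13 of 30 above 0 in each. Of 5 proliferation markers, Mki67, Top2a, Pcna, Ccna2 and Ccnb1, 0 were called in any comparison, and their medians were 0.03 in Ret null, -0.07 in Sema3d null and -0.01 in double null guts.

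Cell makeup and the targeted genes moved as follows. In the authors' deposited tables Ret stood at 0.309% of its wildtype level in Ret null and at 0.0759% in double null guts, and Sema3d at 47.8% in Sema3d null and 48.6% in double null guts. Sema3d was also called lower in Ret null guts, at 83.1% of its wildtype level (adjusted p 0.000882 in the authors' deposited table). All 6 enteric neuron markers were called lower in Ret null guts (median log2 change -4.92) and in double null guts (-5.01), and so were 3 and 4 of the 4 crest and glia markers. The summed fitted level of the neuron markers was 167 in Ret null, 2364 in Sema3d null and 204 in double null guts, against 2525 in wildtype guts. That of the crest and glia markers was 631 in Ret null, 1484 in Sema3d null and 641 in double null guts, against 1604 in wildtype guts. In Sema3d null guts 0 of these 10 were called. Liver markers, 4 genes, had a median log2 change of 0.82 in Sema3d null guts, with 2 higher at an unadjusted p under 0.05, beside -0.65 over 3 usable fits in Ret null guts. The liver markers had a summed fitted level of 550 in Ret null, 2972 in Sema3d null and 3173 in double null guts, against 1601 in wildtype guts. The 8 erythroid markers summed to a fitted level of 34624 in Ret null, 37828 in Sema3d null and 36095 in double null guts, against 32083 in wildtype guts, and 0 were called. For Hist1h2ap the fitted level was 2578 in Ret null, 2772 in Sema3d null, 2377 in double null and 2127 in wildtype guts. Of the other called genes, Hist1h2ah was highest in Ret null guts (1017) and Hist1h2ai in double null guts (89.34). These fitted levels carry no error, and a relation between them and the erythroid sum was not tested. The labelled tissue was present, with all 5 gut mesenchyme and all 5 gut epithelium markers at a fitted wildtype level of at least 283. Other RNA kinds that lack a poly-A tail had few usable fits; snoRNA genes had medians of -0.01 over 49 fits in Ret null, 0.37 over 46 in Sema3d null and 0.01 over 42 in double null guts, and 0 were called. The part of cell makeup, of blood, of liver tissue or of RNA carry-over in the histone values was not tested.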

How the data were processed

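Poly-A RNA of 24 embryonic day 12.5 mouse guts was sequenced as 100 bp read pairs from oligo-dT selected, stranded libraries, per the labels' protocols. Per the submitters' processing notes, the tools were DESeq 1.24.0, RSEM 1.2.31, STAR, Trimmomatic 0.36 and FastQC 0.11.5, and the build was GRCm38 (mm10). The authors deposited 4 tables of comparison results, with no value per library. The log2 coefficients of intercept, sex and genotype, the model deviances (a score of fit with no fixed range) and the p-values and adjusted p-values are those the authors deposited, per the file headers. The headers do not name the base of the logarithm; base 2 was taken, since a table's fitted wildtype levels, divided by 1000000, then add up to 10.9 to 11.3, where natural logarithms would give 358 to 371. The symbol and biotype headers are swapped in the table for Ret null, so those columns were read by content. Each p-value the authors deposited matched the upper tail of a chi-square (1 degree of freedom) at the deviance difference within 4.91e-09.

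A row was called at the authors' adjusted p under 0.05 over all rows. The standard error after ± was derived as the size of the coefficient over the square root of the deviance difference, a step tested on simulated data. A fit was usable if it converged with a coefficient of at most 15. Levels are 2 to the power of the fitted coefficients. Stem-loops, shared 100-base windows and coordinates came from GENCODE M21, where 64 of 66 gene IDs were found, 42 with the same version; no source used here gives the authors' annotation release. Promoters came from RefSeq (GRCm38.p6). The labels do not say whether the 3 guts of a sex and genotype came from separate litters, so p-values measure only the spread between these guts.

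The text names every called member, the 3 largest increases and decreases per comparison among usable fits at a level of 50 or more, the 3 highest members of each type and, from the 2 genes with the smallest p in each other list, some. Outside this rule it names further members at an unadjusted p under 0.05, the other H1 genes and promoter partners, chosen after their values were seen. The members and the lists were chosen with earlier results of these data known. Python 3.11.15, pandas 2.3.3, numpy 2.4.6 and scipy 1.17.1 were used.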

Additional observations from a re-analysis of the deposited data

How the results depend on the processing

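Counts of called members changed under no alternative by over 1.5 times: 3 members were higher in Ret null guts at adjusted p thresholds of 0.1 and 0.01, and 2 with usable fits only, where Hist1h2ah drops out. The median log2 changes turned sign under limits on the level of the genes. Level here is the higher of the genotypes fitted, so Hist1h2ai, and in Sema3d null guts and the interaction also Hist1h2ad, reach 50 only through null guts. In Ret null guts the median of -0.02 became 0.0053 at a level of at least 50, 0.016 at a level of at least 10 and 0.0074 in the 24-gut fit. At a level of at least 50 the Sema3d null median of -0.26 became 0.22, the double null median of -0.13 became 0.12 and the interaction median of 0.31 became -0.11; at a level of at least 10 the interaction median became -0.075. With a wildtype level of at least 50, a limit added after seeing the data, the medians were -0.020 in Ret null, 0.13 in Sema3d null, 0.072 in double null guts and -0.075 in the interaction, so the turn of sign in Ret null guts at 50 rests on Hist1h2ai. The limits on level use fewer genes; beyond that the cause was not tested. No paired analysis was possible because the tables hold no value per library; for the same reason leaving out each gut in turn was not run. Depth per library is unknown, and members at a mean level under 10 had median derived errors of 0.63 in Ret null, 0.71 in Sema3d null and 0.66 in double null guts.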
